A study of Mus musculus with 4 samples.

Results

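The medial nasal process (MNP) was compared with the maxillary process (Mx) of the mouse face at stage e11.5, by bulk RNA-seq of 1 library each. A gene was taken as differing where it reached 5 CPM (counts of a gene per 1000000 counts of its library) in at least 1 of both libraries and was at least 2-fold apart on the log2(CPM + 0.5) scale. Of 43346 gene entries, 12172 reached 5 CPM, and 675 of these (5.55%) were 2-fold apart. The MNP was higher for 541 genes (4.44% of those at 5 CPM) and the Mx for 134 (1.10%). These shares depend on the scale. The deposited TPM, which corrects for transcript length, was also used, with 0.5 added for the fold as for CPM. Adding 0.5 lowers ratios more where TPM is small. With TPM for both the level and the fold, 256 genes were higher in the MNP and 143 in the Mx. The MNP then held 64.2% of the differing genes, against 80.1% with CPM. With TPM for the fold alone and CPM for the level, the numbers were 403 and 127, and the MNP held 76.0%.

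Both libraries came from freshly dissected wild-type embryos with no treatment, and the labels give the cell type as mixed. The 2 other libraries of the set were from the lateral nasal process (LNP) and the mandibular process (Md) of the same stage. For strain and number of embryos per library, nothing is stated in the sources used here. The label of the MNP library carries the abbreviation of the LNP in brackets after the words for the medial process, so its group was taken from the written name. With 1 library per process, every interval below is a 95% interval for counting error only. No difference was measured against the spread between embryos and no p-value is given. In bulk tissue, fewer cells of a type and less RNA per cell cannot be told apart.

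The MNP and the Mx grow out beside each other and fuse to form the upper lip. Neural crest cells fill both with mesenchyme under a sheet of ectoderm. The medial side of the nasal pit carries olfactory epithelium, and the MNP lies close to the forebrain. Alx homeobox genes are known for roles in frontonasal mesenchyme. Genes such as Barx1, Lhx6 and Lhx8 are known from the mesenchyme around the mouth, which gives rise to teeth and palate.

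The total counts were 13216199 in the MNP and 15385151 in the Mx, so that 5 CPM stood for 66.1 and 76.9 counts, and 3 counts for 0.227 and 0.195 CPM. Over all 12172 genes the median log2 difference was 0.01. RNA that stays in the nucleus and RNA of ribosomal proteins differed between the libraries. Malat1, a long nuclear RNA, was at 7735 CPM in the MNP and 5294 CPM in the Mx, and ribosomal protein genes took 3.24% of the counts in the MNP and 3.77% in the Mx. Whether these shifts bear on the number of differing genes was not tested.

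A set of 5 marker genes, chosen with these values known, differed in both directions. Alx1, a homeobox gene of frontonasal mesenchyme on chromosome 10 from 102998707 to 103030215 of GRCm38, was at 272 CPM in the MNP and 64.998 CPM in the Mx, a difference of 4.19-fold (interval 3.90 to 4.496). Col2a1, the main collagen of cartilage, on chromosome 15 from 97975602 to 98004695, was at 416 CPM in the MNP and 163 CPM in the Mx, a difference of 2.56-fold (interval 2.44 to 2.68). The others were lower in the MNP. Barx1, a homeobox gene of molar and stomach mesenchyme, on chromosome 13 from 48662998 to 48666507, was at 7.94 CPM in the MNP and 118 CPM in the Mx, a difference of 14.8-fold (interval 12.2 to 18.2). Lef1, the DNA-binding partner of beta-catenin, on chromosome 3 from 131110471 to 131224356, was at 66.7 CPM in the MNP and 233 CPM in the Mx, 3.502-fold (interval 3.25 to 3.77) lower in the MNP. Ptn, a secreted heparin-binding growth factor, on chromosome 6 from 36714929 to 36810220, was at 122 CPM in the MNP and 289 CPM in the Mx, 2.36-fold (interval 2.23 to 2.50) lower in the MNP.

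**Figure D1:**
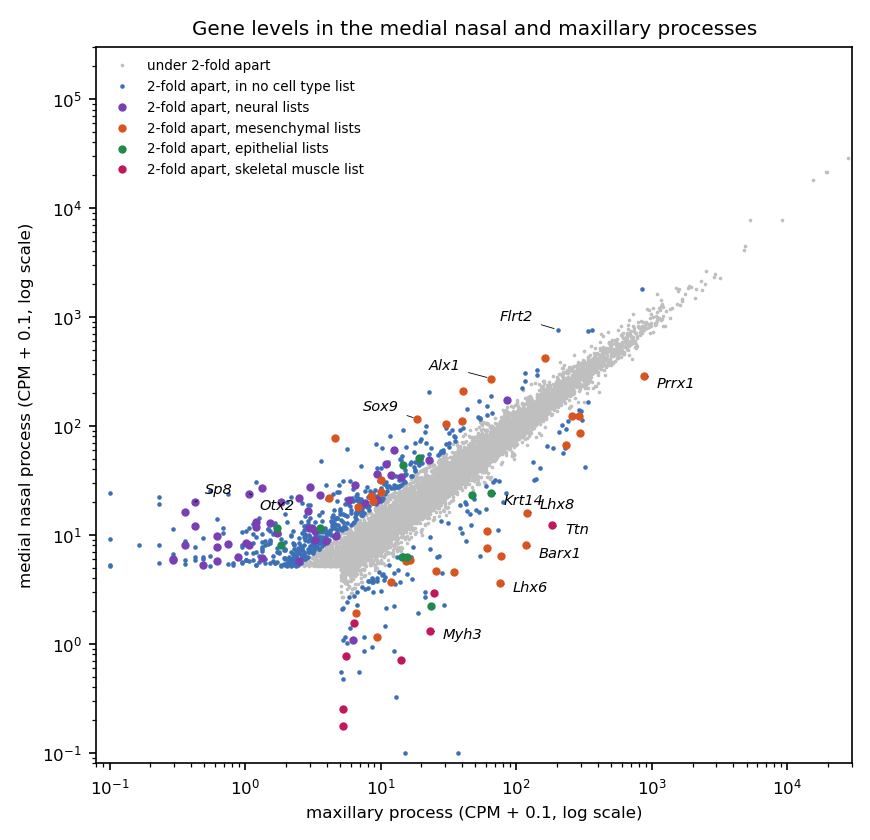
Level of each of 12172 genes in the MNP (vertical axis) and the Mx (horizontal axis), as CPM plus 0.1 on log scales, with the 675 genes at least 2-fold apart coloured by cell type list. Neural list members (purple) lie above the diagonal apart from 1 gene, muscle list members (pink) lie below it, and mesenchymal members (orange) lie on both sides.

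Most differing genes were expressed at modest levels. The median level in the higher library was 12.3 CPM for the genes higher in the MNP and 21.1 CPM for those higher in the Mx, against 35.6 CPM over all genes at 5 CPM. The median fold was 2.94 for the genes higher in the MNP and 3.20 for those higher in the Mx. At least 4-fold differences were found for 146 and 45 genes. The whole counting interval lay past 2-fold for 343 of the 541 genes and for 92 of the 134, which is 2.82% and 0.756% of the 12172 genes, and the intervals of all 675 genes excluded a ratio of 1.

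The members of cell type lists were spread unequally over the 2 directions. Of 65 neural list genes at 5 CPM, 44 (67.7%) were higher in the MNP and 1 (1.54%) in the Mx. Among 69 mesenchymal list genes, 13 (18.8%) were higher in the MNP and 18 (26.1%) in the Mx. Of 32 epithelial list genes, 5 were higher in the MNP and 5 in the Mx, and of 39 genes of other cell types 0 and 8. A gene that reached 5 CPM in 1 library alone entered through the library where it was higher, which partly sets these shares. The remaining 479 genes higher in the MNP and 102 higher in the Mx were in none of these lists.

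**Figure D2:**
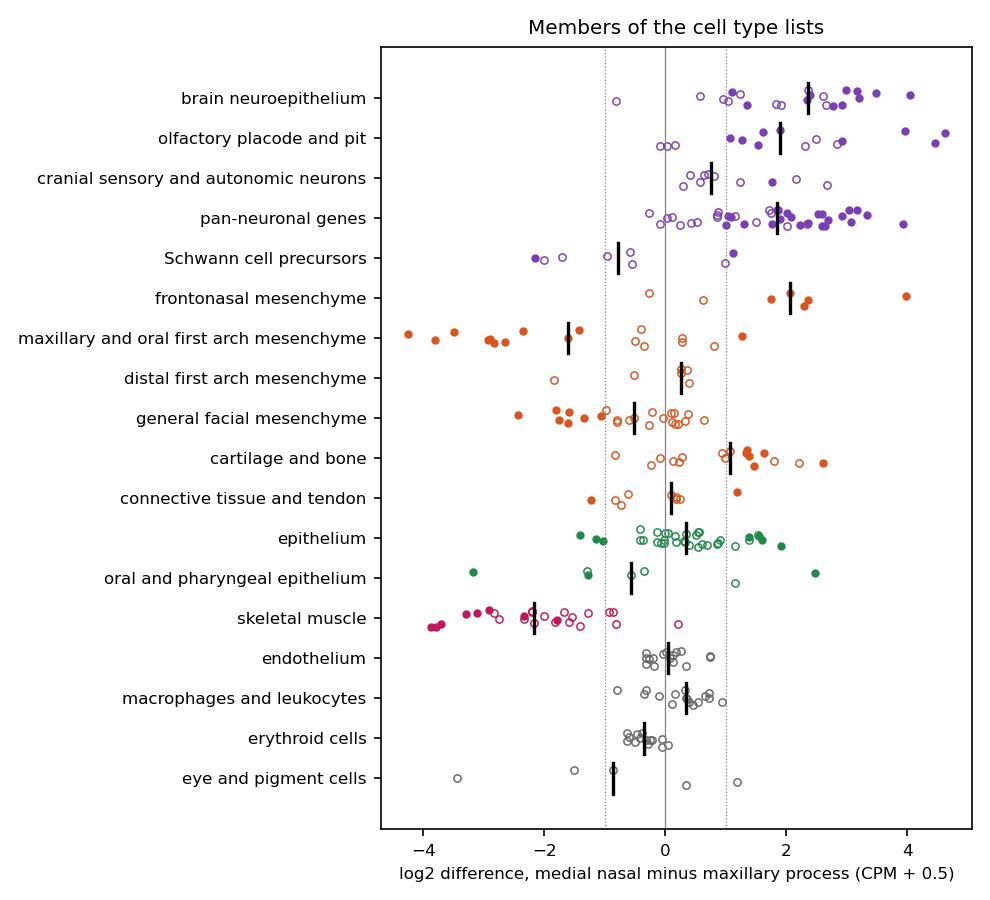
Log2 difference, MNP minus Mx (CPM + 0.5), of each list member with at least 1 CPM in 1 of both libraries. Filled points are genes at 5 CPM and at least 2-fold apart, open points the rest, black bars the list medians and dotted lines 2-fold. The medians of the brain, olfactory, pan-neuronal and frontonasal lists lie to the right, and those of Schwann cell precursors, oral mesenchyme and muscle to the left.

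Neural genes made the largest group among the listed genes. In the list of brain neuroepithelium, 11 of 13 genes at 5 CPM were higher in the MNP and 0 in the Mx, with a median log2 difference of 2.36 over the 21 members at 1 CPM, where all genes at 1 CPM had a median of 0.04. With a pseudocount of 2 the list median was 1.22. All 11 were under 5 CPM in the Mx and so counted through the MNP alone, which partly sets the share of 11 of 13. Otx2, a homeobox gene of forebrain, midbrain and anterior sensory placodes, was at 23.8 CPM in the MNP and 0.975 CPM in the Mx, a difference of 24.4-fold (interval 14.5 to 44.1). Sox1, which marks the early neural plate and tube, was at 8.02 CPM in the MNP and 0.260 CPM in the Mx, and Pou3f2, a neural POU factor, at 12.7 CPM in the MNP and 1.43 CPM in the Mx. En2, known from the boundary of midbrain and hindbrain, was at 5.75 CPM in the MNP and 0.195 CPM in the Mx. It had 76 counts in the MNP and 3 in the Mx, a ratio of 29.5-fold (interval 9.72 to 146). Olig2, a factor of motor neuron and oligodendrocyte precursors, was at 5.90 CPM in the MNP and 0.195 CPM in the Mx, and Tal2, known from the midbrain, at 6.20 CPM in the MNP and 0.780 CPM in the Mx. Otx1, Dmrta2, Pou3f4, Fgf17 and Hes5 were the others, of which Otx1 and Pou3f4 were under 2-fold with TPM. The summed level of all 26 list members was 146 CPM in the MNP and 37.5 CPM in the Mx, with 0 members at 0 counts in the MNP and 2, Olig1 and Pax5, in the Mx. Whether brain tissue in the dissected piece took part in these differences was not tested.

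Genes of the olfactory placode and pit were also higher in the MNP, with 9 of 12 at 5 CPM, 0 in the other direction and a median of 1.89. Sp8, a zinc finger gene needed for outgrowth of the nasal pit rim and forebrain, was at 19.9 CPM in the MNP and 0.325 CPM in the Mx, a difference of 61.2-fold (interval 25.9 to 190). Fezf1, a repressor needed for olfactory axon growth, was at 16.2 CPM in the MNP and 0.260 CPM in the Mx, or 62.3-fold (interval 23.97 to 231). Lhx2, a LIM homeobox gene needed for olfactory neurons, was at 26.7 CPM in the MNP and 1.23 CPM in the Mx, or 21.6-fold (interval 13.6 to 36.4). Neurod1, a proneural factor, was at 11.7 CPM in the MNP and 1.10 CPM in the Mx. Smaller differences were found for the others. Sox2, a progenitor factor, was at 36.02 CPM in the MNP and 9.36 CPM in the Mx, and Eya2, a placode gene, at 35.3 CPM in the MNP and 11.9 CPM in the Mx. Hes6 and Ebf2, known from differentiating neurons, were at 48.1 and 34.05 CPM in the MNP, against 22.7 and 13.9 CPM in the Mx. Pax6, a regulator of eye and nasal placodes, was at 10.8 CPM in the MNP and 3.18 CPM in the Mx, or 3.40-fold (interval 2.44 to 4.80). Gnrh1, the hormone of neurons that leave the olfactory pit, had 13 counts in the MNP and 0 in the Mx. The olfactory list summed to 548 CPM in the MNP and 351 CPM in the Mx.

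Among the genes with the largest coding differences were several in no list. Atp8b4, a phospholipid flippase subunit, was at 22.02 CPM in the MNP and 0.130 CPM in the Mx. It had only 2 counts in the Mx, so that the ratio of 169 had a wide interval of 46.5 to 1405. Acsm4, a medium-chain acyl-CoA synthetase known from olfactory epithelium, was at 18.9 CPM in the MNP and 0.130 CPM in the Mx. Ugt2a2, a glucuronosyltransferase of the same tissue, had 69 counts in the MNP and 0 in the Mx, at least 26.8-fold higher in the MNP when the Mx is set at 3 counts. These 3 genes were likewise at 17.1, 14.6 and 4.64 CPM in the LNP, against 0.146, 0.219 and 0 CPM in the Md. Fstl5, a secreted follistatin-like protein, was at 25.05 CPM in the MNP and 0.455 CPM in the Mx. Slc27a2, a fatty acid transporter next to Atp8b4 on chromosome 2, was at 8.02 CPM in the MNP and 0.0650 CPM in the Mx. Lrriq1, a gene of unclear function, was at 11.4 CPM in the MNP and 0.585 CPM in the Mx.

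Zic1, a zinc finger factor of the dorsal neural tube and of some mesenchyme, was at 30.7 CPM in the MNP and 1.10 CPM in the Mx, a difference of 27.8-fold (interval 17.1 to 48.2). The Zic family was looked at after these values were seen. All 3 members at 5 CPM, Zic1, Zic4 and Zic2, were higher in the MNP. The 5 genes together summed to 54.6 CPM in the MNP and 3.45 CPM in the Mx. The 3 thus counted through the MNP alone, which partly sets their direction.

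Genes shared by most neurons followed the same direction. In the list of pan-neuronal genes, 22 of 31 at 5 CPM were higher in the MNP and 0 in the Mx, with a median of 1.85. Tubb3, the neuronal beta-tubulin, was at 174 CPM in the MNP and 84.8 CPM in the Mx, only 2.05-fold (interval 1.92 to 2.198), while Elavl3, a neuronal RNA-binding protein, was at 27.6 CPM in the MNP and 2.92 CPM in the Mx, or 9.44-fold (interval 6.91 to 13.2). Dcx, a microtubule protein of migrating neurons, was at 59.9 CPM in the MNP and 12.3 CPM in the Mx. Cntn2, an axonal adhesion protein, was at 45.02 CPM in the MNP and 10.8 CPM in the Mx. Elavl4, a relative of Elavl3, and Nsg2, a neuronal endosomal protein, were at 28.4 and 23.2 CPM in the MNP, against 6.37 and 3.44 CPM in the Mx. Myt1l, a repressor of non-neuronal programmes, was at 12.03 CPM in the MNP and 0.325 CPM in the Mx. Gad2, an enzyme of GABA-making neurons that is in no list, was at 8.78 CPM in the MNP and 0.260 CPM in the Mx. Gap43, a growth cone protein, was an exception, at 42.4 CPM in the MNP and 51.3 CPM in the Mx. The summed level of the list was 1072 CPM in the MNP and 531 CPM in the Mx, and Onecut1 and Scrt2 had 0 counts in the Mx.

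Ion channels, transmitter receptors and synaptic proteins were examined as whole families, chosen after the values were seen. Of 73 such genes at 5 CPM in 9 families, 24 were higher in the MNP and 4 in the Mx. Nrxn2 and Nrxn3, presynaptic adhesion proteins, were higher in the MNP, at 8.78 and 8.32 CPM in the MNP, against 1.2999 and 1.04 CPM in the Mx. Of 8 voltage-gated sodium channel genes at 5 CPM, 4 were higher in the MNP and 0 in the Mx, among them Scn9a, known from sensory and olfactory neurons, at 17.1 CPM in the MNP and 4.94 CPM in the Mx. A pair of AMPA-type glutamate receptor genes went the other way. Gria2 and Gria1 were at 10.4 and 2.12 CPM in the MNP, against 39.7 and 12.4 CPM in the Mx, and Gria1 was 5.86-fold (interval 3.93 to 9.05) lower in the MNP. The remaining genes lower in the MNP were Gabrp, a GABA-A receptor subunit, and Kcna4, a potassium channel, at 7.72 and 0.832 CPM in the MNP, against 17.4 and 8.58 CPM in the Mx.

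Few genes of the peripheral nerve lists reached 5 CPM. Their shares of differing genes, beside 5.55% of all genes at 5 CPM, therefore rest on few genes. The list of cranial sensory and autonomic neurons had a median of 0.75 and summed to 76.3 CPM in the MNP and 40.2 CPM in the Mx. Of its 3 genes at 5 CPM 1, Isl2, was higher in the MNP, at 11.3 CPM in the MNP and 2.99 CPM in the Mx. Isl1, its relative in sensory neurons, was at 14.7 CPM in the MNP and 9.68 CPM in the Mx, under 2-fold. The list of Schwann cell precursors had a median of -0.78. Of its 6 genes at 5 CPM, Mbp, a myelin protein, was higher in the MNP, at 20.96 CPM in the MNP and 9.36 CPM in the Mx, and Cdh19, a cadherin of these precursors, was lower, at 0.984 CPM in the MNP and 6.11 CPM in the Mx. Sox10, the defining factor of the lineage, was at 4.09 CPM in the MNP and 6.37 CPM in the Mx, under 2-fold.

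Several noncoding transcripts that carry miRNAs were also among the differing genes, outside the cell type lists. C130071C03Rik, which holds the gene for miR-9-2 on chromosome 13, was at 23.6 CPM in the MNP and 0.650 CPM in the Mx, a difference of 36.3-fold (interval 19.5 to 76.5). Mir124-2hg, the host of a second neuronal miRNA, was at 13.9 CPM in the MNP and 0.520 CPM in the Mx, and Mir124a-1hg at 5.83 CPM in the MNP and 0.910 CPM in the Mx. Gm13648 on chromosome 4 spans the genes for miR-200a, miR-200b and miR-429, known as keepers of the epithelial state, and was at 7.26 CPM in the MNP and 1.23 CPM in the Mx, a difference of 5.88-fold (interval 3.57 to 10.2). A330023F24Rik on chromosome 1, which spans the genes for miR-29b-2 and miR-29c, known to repress collagen mRNAs, was at 5.83 CPM in the MNP and 2.01 CPM in the Mx. Among the genes higher in the Mx, Myh7, a slow muscle myosin, holds miR-208b and was at 0.681 CPM in the MNP and 5.46 CPM in the Mx. In all, 38 miRNA genes lay within 32 differing genes on the same strand. Of these hosts, 27 were higher in the MNP and 5 in the Mx, where 541 of all 675 differing genes were higher in the MNP. The share of all genes at 5 CPM that hold a miRNA gene was not counted. Several miRNA genes lay in the entry Gm20388, and that for miR-7687 lay in both Gm20388 and Gse1, which differed in opposite directions. The mature miR-9-5p lies at chr13:83738821-83738843 on the plus strand, miR-200b-3p at chr4:156055685-156055706 on the minus strand and miR-29b-3p at chr1:195037091-195037113 on the plus strand. The libraries measured the host transcripts and not the mature miRNAs. The mature sequences from RefSeq (GRCm38.p6) are shown for these hosts because the seed, bases 2 to 8 in capitals, sets which mRNAs a miRNA pairs with.
mmu-miR-9-5p: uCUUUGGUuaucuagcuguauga
mmu-miR-200a-3p: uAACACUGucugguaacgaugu
mmu-miR-200b-3p: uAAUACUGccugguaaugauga
mmu-miR-429-3p: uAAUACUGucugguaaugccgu
mmu-miR-29b-3p: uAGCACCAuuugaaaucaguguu
mmu-miR-29c-3p: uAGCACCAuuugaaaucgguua
mmu-miR-208b-3p: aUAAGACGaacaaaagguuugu
miR-200b and miR-429 share 1 seed, and miR-29b and miR-29c share another, while miR-9, miR-200a and miR-208b each have a seed of their own among these.

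The mesenchyme differed by region. Of 7 frontonasal mesenchyme genes, all at 5 CPM, 5 were higher in the MNP and 0 in the Mx, with a median of 2.06. Beside Alx1, given above, its paralogue Alx4 was at 285 CPM in the MNP and 186 CPM in the Mx, under 2-fold. Tfap2b, an AP-2 factor of neural crest, was at 211 CPM in the MNP and 40.6 CPM in the Mx, or 5.20-fold (interval 4.76 to 5.68). Six2, a homeobox gene of nasal and frontal mesenchyme, was at 103 CPM in the MNP and 30.2 CPM in the Mx, and Pax7, a paired box gene of nasal crest, at 21.6 CPM in the MNP and 4.03 CPM in the Mx. Pax3, the paralogue of Pax7, was at 56.4 CPM in the MNP and 68.5 CPM in the Mx, so that not every gene of the list was higher in the MNP.

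Oral mesenchyme genes were on the other side. In the list of maxillary and oral first arch mesenchyme, 10 of 17 genes were higher in the Mx and 1, Tbx22, in the MNP, with a median of -1.61. Lhx6 and Lhx8 are LIM homeobox genes of the tooth-forming and palatal mesenchyme. Lhx6 was at 3.48 CPM in the MNP and 75.7 CPM in the Mx, 21.8-fold (interval 16.2 to 29.9) lower in the MNP, and Lhx8 at 15.7 CPM in the MNP and 120 CPM in the Mx, or 7.64-fold (interval 6.62 to 8.87). The T-box gene Tbx15, known from skeletal and dermal mesenchyme, was at 6.36 CPM in the MNP and 77.02 CPM in the Mx, or 12.1-fold (interval 9.71 to 15.3). Dlx1 and its neighbour Dlx2, distal-less genes of the first arch, were at 7.49 and 3.56 CPM in the MNP, against 60.4 and 11.9 CPM in the Mx. Osr1 and Osr2, zinc finger genes of palate and tooth mesenchyme, were at 4.46 and 4.54 CPM in the MNP, against 34.7 and 25.4 CPM in the Mx. Gsc, a homeobox gene of the jaw, was at 5.83 CPM in the MNP and 16.4 CPM in the Mx, and Sim2, a bHLH-PAS factor of palate, at 1.06 CPM in the MNP and 9.29 CPM in the Mx. Tbx22, mutated in human X-linked cleft palate, was the exception at 24.7 CPM in the MNP and 10.01 CPM in the Mx. Distal first arch genes, which mark the lower jaw, differed for 0 of 5 at 5 CPM, with Dlx5 and Dlx6, the distal Dlx genes, at 6.96 and 9.31 CPM in the MNP, against 5.20 and 7.67 CPM in the Mx. Ednra, the endothelin receptor of crest cells, was at 85.96 CPM in the MNP and 71.95 CPM in the Mx, and Mef2c, a target of this pathway in crest, at 33.4 CPM in the MNP and 48.03 CPM in the Mx.

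Several genes of mesenchyme in general were lower in the MNP. Of 22 at 5 CPM, 7 were higher in the Mx and 0 in the MNP, with a median of -0.52. Prrx1, a paired-related homeobox gene of crest and limb mesenchyme, was at 288 CPM in the MNP and 876 CPM in the Mx, 3.04-fold (interval 2.93 to 3.15) lower in the MNP. Postn, a matrix protein of fibrous tissue, was at 86.7 CPM in the MNP and 294 CPM in the Mx, or 3.39-fold (interval 3.17 to 3.62). Twist1, a bHLH factor needed by crest mesenchyme, and its paralogue Twist2 were at 124 and 10.8 CPM in the MNP, against 260 and 60.4 CPM in the Mx. Meox2, a homeobox gene of somites and palate, was at 1.82 CPM in the MNP and 6.4998 CPM in the Mx. Dcn, a small collagen-binding proteoglycan, was at 5.67 CPM in the MNP and 15.2 CPM in the Mx. The summed level of the 23 list genes was 6784 CPM in the MNP and 7933 CPM in the Mx.

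Mab21l2, a gene of eye and arch mesenchyme in no list, was at 42.1 CPM in the MNP and 322 CPM in the Mx, 7.66-fold (interval 7.02 to 8.38) lower in the MNP. Of the genes with the largest coding differences, Chodl, a membrane protein with a lectin domain, was at 0.227 CPM in the MNP and 12.8 CPM in the Mx, with 3 counts in the MNP and a ratio of 56.4-fold (interval 19.02 to 276). Kera, a small proteoglycan of cornea and tendon, was at 0.454 CPM in the MNP and 6.82 CPM in the Mx. Gpr17, an orphan receptor known from oligodendrocyte precursors, was at 1.82 CPM in the MNP and 18.7 CPM in the Mx. Kctd12, a subunit of GABA-B receptors, was at 114 CPM in the MNP and 307 CPM in the Mx, and Capn6, a calpain without protease activity, at 167 CPM in the MNP and 340 CPM in the Mx.

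Cartilage genes differed in 1 direction. Of 12 cartilage and bone genes at 5 CPM, 6 were higher in the MNP and 0 in the Mx, with a median of 1.07. Sox9, the master regulator of cartilage and also a gene of neural and epithelial progenitors, was at 116 CPM in the MNP and 18.5 CPM in the Mx, a difference of 6.27-fold (interval 5.52 to 7.14). Sox5, its cofactor, was at 110 CPM in the MNP and 39.8 CPM in the Mx. Col9a2 and Col9a3, chains of the collagen that coats type II fibrils, were at 31.7 and 17.8 CPM in the MNP, against 9.88 and 6.76 CPM in the Mx. Hapln1, a link protein of the cartilage matrix, was at 22.8 CPM in the MNP and 8.45 CPM in the Mx, while Acan, the main cartilage proteoglycan, stayed under 5 CPM at 3.03 CPM in the MNP and 0.260 CPM in the Mx. The bone factor Runx2 was at 33.9 CPM in the MNP and 60.8 CPM in the Mx, under 2-fold in the other direction. Matn1 and Snorc, genes of mature cartilage, had 0 counts in both libraries.

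In connective tissue and tendon genes 6 reached 5 CPM. Mkx, a homeobox gene of tendon, was higher in the MNP, at 20.4 CPM in the MNP and 8.71 CPM in the Mx, and Ptn, given above, was the 1 gene lower.

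Collagens as a family split by type. Of 29 collagen genes at 5 CPM, 3 were higher in the MNP (Col2a1, Col9a2 and Col9a3) and 5 in the Mx, with a median of 0.11 over the list. All 4 type VI chains at 5 CPM, which form beaded microfibrils around cells, were lower in the MNP. Col6a1, Col6a2 and Col6a3 were at 32.01, 46.2 and 92.8 CPM in the MNP, against 136, 133 and 234 CPM in the Mx. Col6a6, an alternative chain, was at 1.06 CPM in the MNP and 7.41 CPM in the Mx. Col25a1, a membrane collagen of neurons and muscle targets, was at 32.01 CPM in the MNP and 69.4 CPM in the Mx.

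**Figure D3:**
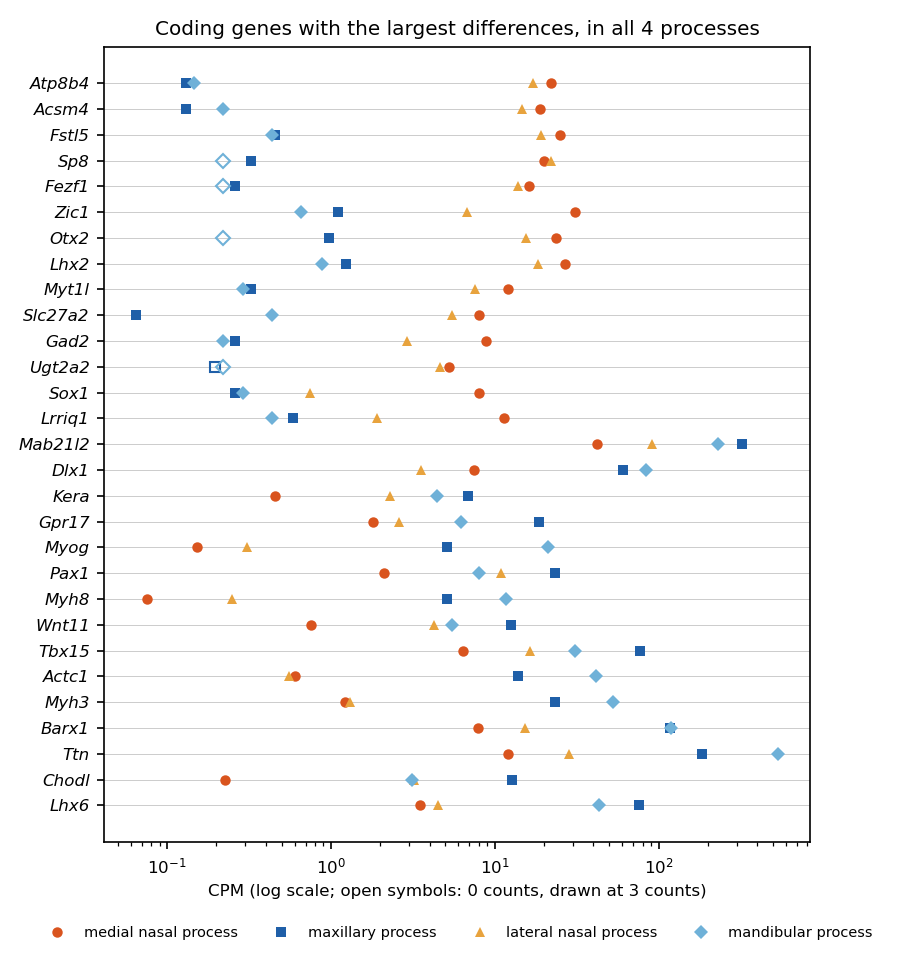
CPM, on a log scale, in the 4 processes of 14 and 15 coding genes among those with the largest log2 difference, higher in the MNP (orange circles) and higher in the Mx (dark blue squares). Open symbols mark 0 counts, drawn at the CPM of 3 counts. The LNP (triangles) was at least 2-fold above the Md (diamonds) for 13 of the 14 genes higher in the MNP, and the Md at least 2-fold above the LNP for 10 of the 15 higher in the Mx.

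The plain difference in CPM, which favours long and abundant transcripts, picked out other genes. Fat4, a giant protocadherin of planar cell polarity, was at 1817 CPM in the MNP and 842 CPM in the Mx, or 2.16-fold (interval 2.11 to 2.21). Flrt2, a membrane protein that binds FGF receptors and Unc5 receptors, was at 763 CPM in the MNP and 204 CPM in the Mx, or 3.74-fold (interval 3.60 to 3.90). Igfbp5 binds insulin-like growth factors and was at 754 CPM in the MNP and 363 CPM in the Mx. Map1b, a microtubule protein abundant in growing axons, was at 741 CPM in the MNP and 340 CPM in the Mx. Asxl3, a chromatin regulator, was at 305 CPM in the MNP and 116 CPM in the Mx.

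The few epithelial genes that differed went both ways. Of 28 epithelium genes at 5 CPM, 4 were higher in the MNP and 3 in the Mx, with a median of 0.35. Krt8 and its partner Krt18, keratins of simple epithelia, were higher in the MNP, at 50.998 and 43.7 CPM in the MNP, against 19.2 and 14.6 CPM in the Mx. Krt7 and Krt19, of the same kind, were under 2-fold, at 9.53 and 5.67 CPM in the MNP, against 7.73 and 5.46 CPM in the Mx. Some keratins of stratified basal cells were lower. Krt14 was at 24.4 CPM in the MNP and 65.3 CPM in the Mx, 2.68-fold (interval 2.36 to 3.05) lower in the MNP. Its partner Krt5 and the basal keratin Krt15 were at 22.9 and 6.20 CPM in the MNP, against 47.3 and 14.3 CPM in the Mx, and Krt15 was under 2-fold with TPM. Cldn7 and Cldn3, claudins of tight junctions, were at 11.501 and 7.94 CPM in the MNP, against 3.44 and 1.75 CPM in the Mx. General epithelial genes were under 2-fold. Epcam, an adhesion protein, and Cdh1, E-cadherin, were at 54.3 and 55.4 CPM in the MNP, against 28.8 and 37.96 CPM in the Mx, and Trp63, the basal cell regulator, at 37.7 CPM in the MNP and 50.3 CPM in the Mx. The list summed to 862 CPM in the MNP and 726 CPM in the Mx.

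Families of junction proteins, chosen after the values were seen, also went both ways. Of 9 claudins at 5 CPM, 4 were higher in the MNP and 0 in the Mx. Both connexins of the Gjb family at 5 CPM were lower in the MNP. Gjb2 and Gjb6, known from stratified and inner ear epithelia, were at 2.88 and 2.04 CPM in the MNP, against 20.99 and 10.8 CPM in the Mx. The 4 claudins were under 5 CPM in the Mx and both connexins under 5 CPM in the MNP. Each thus counted through 1 library alone, which partly sets these counts. Elf5, an epithelial ETS factor, was at 5.75 CPM in the MNP and 0.910 CPM in the Mx. In the list of oral and pharyngeal epithelium, 4 genes reached 5 CPM. Pax1, known from pharyngeal pouches and sclerotome, was at 2.12 CPM in the MNP and 23.3 CPM in the Mx, 10.98-fold (interval 7.47 to 16.8) lower in the MNP. Sox21, a factor of neural and oral progenitors, was at 11.3 CPM in the MNP and 1.62 CPM in the Mx, higher in the MNP.

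Skeletal muscle genes were lower in the MNP without exception among those called. Of 9 at 5 CPM, 8 were higher in the Mx and 0 in the MNP, with a median of -2.17 over 25 members, or -1.01 with a pseudocount of 2. All but Ttn of the 8 were under 5 CPM in the MNP and so counted through the Mx alone, which partly sets this share. Ttn, the giant sarcomere spring, was at 12.1 CPM in the MNP and 185 CPM in the Mx, 15.3-fold (interval 13.03 to 18.04) lower in the MNP. Myh3, the embryonic myosin heavy chain, was at 1.21 CPM in the MNP and 23.2 CPM in the Mx, or 19.2-fold (interval 11.6 to 33.9). Actc1, the actin of early muscle, Neb, a thin filament ruler, and Tnnt1, a slow troponin, were at 0.605, 2.80 and 1.44 CPM in the MNP, against 13.9, 24.4 and 6.24 CPM in the Mx. Myog, the factor that drives muscle differentiation, had 2 counts in the MNP and 79 in the Mx, a ratio of 33.9-fold (interval 9.09 to 285). Myh8, the perinatal myosin, had 1 count in the MNP and 79 in the Mx, a ratio of 67.9-fold (interval 11.8 to 2714). The 36 list genes summed to 28.9 CPM in the MNP, 314 CPM in the Mx, 46.8 CPM in the LNP and 895 CPM in the Md, and 10 of them had 0 counts in the MNP, against 2 in the Mx.

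Promoters of the muscle genes that moved together are shown for 2 of them, Myh3 and Tnnt1, as the 100 bases before the RefSeq start site (GRCm38.p6), with the TATA box in capitals. Myh3 (chr11:67078200-67078299, plus strand) has it 29 bases and Tnnt1 (chr7:4515976-4516075, minus strand) 30 bases before the start.
Myh3: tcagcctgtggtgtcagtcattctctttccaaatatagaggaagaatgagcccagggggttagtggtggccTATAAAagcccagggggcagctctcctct
Tnnt1: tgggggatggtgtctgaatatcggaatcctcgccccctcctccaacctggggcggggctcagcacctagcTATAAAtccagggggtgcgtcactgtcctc
TATAAA, on either strand of the 300 bases from 250 before to 50 after the start, was found in 4 of the 7 differing muscle genes with a promoter entry and in 3 of 8 such brain neuroepithelium genes. The E-box CAGCTG, the core bound by MyoD, was in 0 of the 7 muscle promoters. TATAAA was in 14.2% of all 27025 promoters and in 6.41% of those of genes at 5 CPM. The same TATAAA was in 10.99% of the 373 promoters of genes higher in the MNP and 14.9% of the 94 of genes higher in the Mx. The SOX core ACAATG was in 10.99% of the promoters of genes higher in the MNP and 3.19% of those higher in the Mx, against 6.83% at 5 CPM and 12.8% of all. The homeodomain core TAATTA was in 2.41% and 4.26%, against 2.21% at 5 CPM and 5.31% of all. CAGCTG was in 17.96% and 14.9%, against 14.2% at 5 CPM and 16.1% of all. The half-sites of the RE1 element bound by the neuronal repressor REST were near the shares at 5 CPM. CAGCACC was in 7.51% of the promoters of genes higher in the MNP, 7.33% at 5 CPM and 7.09% of all, and GGACAGC in 6.17%, 7.46% and 6.59%. None of these motifs holds another whole.

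The remaining cell type lists held no gene that differed. In lists this short, 0 is near the 5.55% of all genes at 5 CPM that differed. That holds for the cell cycle and heat shock lists below as well. Of 15 endothelial genes at 5 CPM, 0 were 2-fold apart, with Kdr, the main VEGF receptor, at 81.3 CPM in the MNP and 80.4 CPM in the Mx. Fli1, an endothelial ETS factor, was at 78.8 CPM in the MNP and 46.99 CPM in the Mx. The same was true of 3 macrophage and leukocyte genes, among them Mrc1, the mannose receptor of macrophages, and Coro1a, a leukocyte actin regulator, at 17.6 and 10.1 CPM in the MNP, against 10.4 and 17.9 CPM in the Mx. It was also true of 11 erythroid genes. The embryonic globin Hbb-y and the adult-type Hba-a1 were at 1485 and 821 CPM in the MNP, against 2096 and 1248 CPM in the Mx, and the erythroid list summed to 3283 CPM in the MNP and 4659 CPM in the Mx. Mitf, the pigment cell regulator, was at 5.15 CPM in the MNP and 3.96 CPM in the Mx. Lens RNA was unequal at low levels. Cryaa, a lens crystallin, had 0 counts in the MNP and 76 in the Mx, at least 21.8-fold lower in the MNP when the MNP is set at 3 counts, and stood at 12.7 CPM in the LNP and 0 CPM in the Md. It stayed just under 5 CPM, at 4.94 CPM in the Mx. No member of the pituitary list reached 1 CPM, the highest being Lhx4 and Pomc at 0.530 and 0.454 CPM in the MNP, against 0.195 and 0.975 CPM in the Mx. Cell cycle genes differed for 0 of 23 at 5 CPM, with a median of -0.26, and Mki67, the proliferation marker, and Top2a, a topoisomerase of dividing cells, were at 1162 and 1023 CPM in the MNP, against 1151 and 1212 CPM in the Mx. Of 5 immediate early and heat shock genes, 0 differed, and the chaperone genes Hsph1 and Dnajb1 were at 135 and 47.8 CPM in the MNP, against 152 and 46.9 CPM in the Mx. Of 9 hypoxia genes, 1 differed, Car12, a membrane carbonic anhydrase, at 52.6 CPM in the MNP and 14.3 CPM in the Mx.

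Among signalling pathways, the WNT list had the most differing genes by number, and it was also the longest list. Of 44 at 5 CPM, 3 were higher in the MNP and 7 in the Mx, with a median of -0.01. All 4 ligands that differed were lower in the MNP. Wnt11, a ligand of cell movement, was at 0.757 CPM in the MNP and 12.5 CPM in the Mx, 16.6-fold (interval 8.82 to 35.1) lower in the MNP. Wnt9b, an ectodermal ligand needed for lip fusion, was at 20.1 CPM in the MNP and 41.7 CPM in the Mx, and was under 2-fold with TPM. Wnt7b and Wnt10b, ligands of surface ectoderm, were at 19.2 and 2.65 CPM in the MNP, against 42.7 and 6.24 CPM in the Mx. Wnt5a, a ligand of facial outgrowth, was at 446 CPM in the MNP and 267 CPM in the Mx, under 2-fold. Rspo3, an enhancer of WNT signals, was at 12.7 CPM in the MNP and 31.2 CPM in the Mx, and Kremen2, a receptor of DKK inhibitors, at 3.86 CPM in the MNP and 17.03 CPM in the Mx. A pair of secreted inhibitors went the other way. Sfrp1 and Wif1, which bind WNT ligands, were at 152 and 16.7 CPM in the MNP, against 60.7 and 7.08 CPM in the Mx, and the receptor Fzd9 at 5.45 CPM in the MNP and 0.845 CPM in the Mx. Apcdd1, an inhibitor and WNT target outside the list that was chosen after its values were seen, was at 63.2 CPM in the MNP and 228 CPM in the Mx.

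FGF genes were higher in the MNP where they differed, at 3 of 18, with a median of 0.60. Fgf17, a ligand of the anterior forebrain and the midbrain boundary, was at 8.17 CPM in the MNP and 0.650 CPM in the Mx, and Fgf15, a ligand of neural tube, at 6.13 CPM in the MNP and 0.325 CPM in the Mx. Il17rd, a feedback inhibitor of FGF signals also known as Sef, was at 260 CPM in the MNP and 117 CPM in the Mx. Fgf8, a ligand of the nasal pit rim and oral ectoderm, was at 6.20 CPM in the MNP and 3.77 CPM in the Mx, under 2-fold, and Fgf10, a mesenchymal ligand, was at 7.04 CPM in the MNP and 14.04 CPM in the Mx, also under 2-fold. In the BMP list 2 of 20 were higher in the MNP and 0 in the Mx, namely the receptor Bmpr1b and the response gene Id4, at 38.97 and 21.3 CPM in the MNP, against 17.9 and 7.02 CPM in the Mx. Bmp4 itself was at 41.01 CPM in the MNP and 34.3 CPM in the Mx. In the hedgehog list 1 of 13 differed, where 5.55% of all genes did. It was the decoy receptor Hhip, at 5.90 CPM in the MNP and 2.47 CPM in the Mx, which was under 2-fold with TPM, and the target Ptch1 was at 165 CPM in the MNP and 144 CPM in the Mx. Shh stayed under 5 CPM, at 4.54 CPM in the MNP and 1.75 CPM in the Mx.

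Retinoic acid enzymes were lower in the MNP where they differed. Of 16 genes at 5 CPM, 3 were higher in the Mx and 1 in the MNP. Aldh1a2, which makes retinoic acid, was at 30.7 CPM in the MNP and 67.7 CPM in the Mx. Cyp26c1 and Cyp26a1 break it down, and were at 0.757 and 1.29 CPM in the MNP, against 7.41 and 5.85 CPM in the Mx. Cyp26b1, the third degrading enzyme, was at 101 CPM in the MNP and 71.95 CPM in the Mx, under 2-fold, and Aldh1a3, the enzyme of nasal ectoderm, at 32.2 CPM in the MNP and 16.8 CPM in the Mx. Stra6, the receptor that takes up retinol, went the other way at 55.8 CPM in the MNP and 27.4 CPM in the Mx, though under 2-fold with TPM.

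Of 16 Notch genes at 5 CPM, 3 were higher in the MNP and 1 in the Mx. Dll1, a ligand of neurogenesis, its target Hes5, a repressor in neural progenitors, and the modifier Mfng were at 13.2, 7.57 and 20.5 CPM in the MNP, against 3.18, 0.520 and 6.17 CPM in the Mx. Hey2, a target known from vessels and mesenchyme, was at 10.9 CPM in the MNP and 72.99 CPM in the Mx, 6.70-fold (interval 5.63 to 8.02) lower in the MNP.

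Axon guidance genes had a median of 0.05, with 6 of 37 higher in the MNP and 1 in the Mx. The netrin receptors Unc5c and Dcc were at 168 and 34.5 CPM in the MNP, against 53.3 and 9.55 CPM in the Mx. The repulsive ligand Efna5 and the ephrin receptor Ephb1 were at 144 and 13.2 CPM in the MNP, against 43.6 and 3.57 CPM in the Mx. The secreted netrin Ntn4 and Robo3, a receptor of crossing axons, were at 7.34 and 6.28 CPM in the MNP, against 2.92 and 0.455 CPM in the Mx. Ntn4 was under 2-fold with TPM + 0.5. Plxna4, a semaphorin receptor, was the 1 gene lower in the MNP, at 31.2 CPM in the MNP and 74.7 CPM in the Mx.

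Neurotrophins, secreted survival factors of sensory neurons, were chosen after the values were seen. Bdnf, Ntf3 and Ntf5 were lower in the MNP, at 6.28, 9.53 and 2.19 CPM in the MNP, against 26.8, 23.01 and 6.63 CPM in the Mx. The shared low-affinity receptor Ngfr was also lower, at 11.3 CPM in the MNP and 38.1 CPM in the Mx, or 3.36-fold (interval 2.80 to 4.04). Ntrk2, the receptor of Bdnf, was higher in the MNP, at 14.5 CPM in the MNP and 6.37 CPM in the Mx, or 2.28-fold (interval 1.78 to 2.94).

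**Figure D4:**
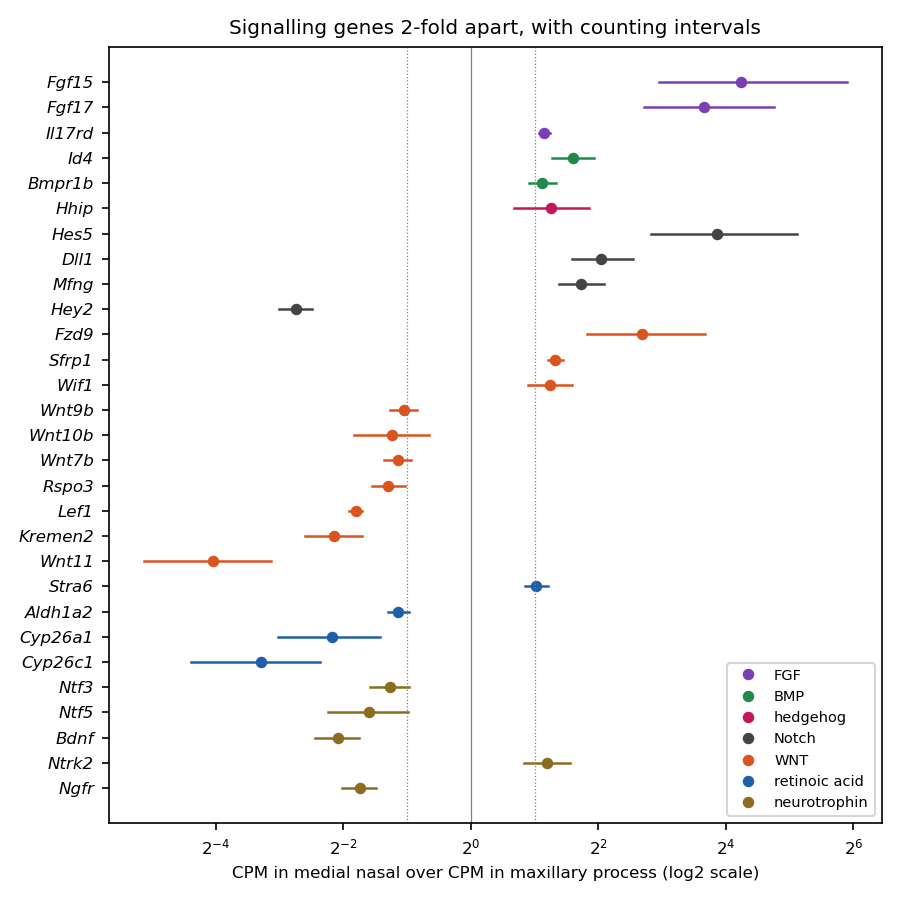
Ratio of CPM in the MNP to CPM in the Mx, on a log2 scale, for differing genes of the FGF, BMP, hedgehog, Notch, WNT and retinoic acid lists and of neurotrophins and their receptors. Bars are 95% counting intervals and dotted lines mark 2-fold. All FGF, BMP and hedgehog genes shown lie to the right, and the neurotrophins Bdnf, Ntf3 and Ntf5 lie to the left.

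Of 38 genes at 5 CPM in which mutations cause clefts of the lip or palate, 5 were higher in the MNP and 5 in the Mx, with a median of 0.05. Those higher in the MNP included Alx1 and Tbx22, given above, with Pax9, a gene of tooth and palate mesenchyme, at 85.96 CPM in the MNP and 31.8 CPM in the Mx, and Tfap2a, an AP-2 factor of crest and ectoderm, at 16.2 CPM in the MNP and 6.76 CPM in the Mx. Higher in the Mx were Twist1, Lhx8, Wnt9b, Osr2 and Sim2. Msx1, a cleft gene of mesenchyme, was under 2-fold, at 196 CPM in the MNP and 236 CPM in the Mx.

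Further transcription factor families were also chosen after the values were seen. All 4 forkhead genes of the C and D groups at 5 CPM were higher in the MNP. Foxc1 and Foxc2, known from cranial mesenchyme, were at 61.97 and 12.6 CPM in the MNP, against 10.1 and 2.79 CPM in the Mx. Foxd1 and Foxd2 were at 31.2 and 13.3 CPM in the MNP, against 5.85 and 2.79 CPM in the Mx. Foxc2 and Foxd2 counted through the MNP alone, which partly sets this result. Of 4 Iroquois genes at 5 CPM, Irx3, Irx5 and Irx6 were lower in the MNP, at 21.4, 16.6 and 0.984 CPM in the MNP, against 49.1, 50.1 and 5.13 CPM in the Mx in that order. T-box genes went both ways. Tbx2 and Tbx18 were at 137 and 6.20 CPM in the MNP, against 299 and 26.1 CPM in the Mx, beside Tbx15 and Tbx22 above.

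The LNP and the Md had no part in choosing the genes, and their values gave a second comparison of a nasal with a first arch process. Of the 541 genes higher in the MNP, 192 (35.5%) were at least 2-fold higher in the LNP than in the Md and 20 (3.70%) at least 2-fold lower. Over all 12172 genes at 5 CPM in the MNP or the Mx the same shares were 2.70% and 1.73%. Of the 134 genes higher in the Mx, 11 (8.21%) were 2-fold higher in the LNP and 44 (32.8%) 2-fold lower. The median log2 difference, LNP minus Md, was 0.58 for the genes higher in the MNP, -0.47 for those higher in the Mx and 0.06 over all genes. For 479 of the 541 genes the MNP had the highest level of all 4 libraries, and for 98 of the 134 the Mx had, which the choice of the genes largely sets. Over all 12172 genes the MNP was highest for 3489 and the Mx for 2858.

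**Figure D5:**
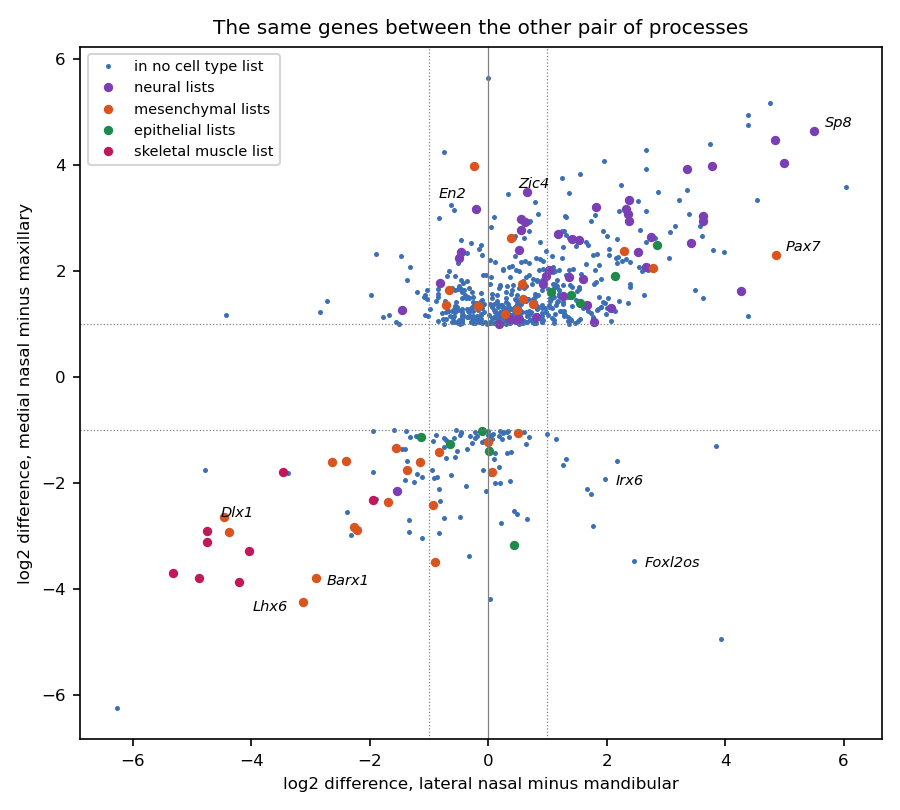
Log2 difference between the MNP and the Mx (vertical axis), on which the genes were chosen, against the log2 difference between the LNP and the Md (horizontal axis) for the 675 genes, coloured by cell type list. Dotted lines mark 2-fold. Muscle genes and most oral mesenchyme genes lie at the lower left, and neural genes extend to the upper right, with En2 and Zic4 near 0 on the horizontal axis.

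The groups differed in this second comparison. Among olfactory genes, 7 of the 9 higher in the MNP were also 2-fold higher in the LNP, such as Sp8, Fezf1 and Lhx2 at 22.1, 13.8 and 18.3 CPM in the LNP, against 0, 0 and 0.877 CPM in the Md. Ebf2 went the other way, at 19.3 CPM in the LNP and 53.7 CPM in the Md. Of the 11 brain genes, 4 were 2-fold higher in the LNP and 0 lower. En2, Hes5 and Sox1 were at 0.0619, 0.557 and 0.742 CPM in the LNP, against 0.146, 0.219 and 0.292 CPM in the Md, so that these genes passed 1 CPM in the MNP alone. Of the 22 pan-neuronal genes 16 were 2-fold higher in the LNP and 0 lower. All 8 muscle genes were 2-fold lower in the LNP, and of the 11 oral mesenchyme genes 8 were lower and 0 higher. Of the 5 frontonasal genes 3 were 2-fold higher in the LNP. Pax7 had its highest level in the LNP, at 113 CPM in the LNP and 3.44 CPM in the Md. All 5 epithelial list genes higher in the MNP were 2-fold higher in the LNP, while Krt14 was at 33.7 CPM in the LNP and 33.3 CPM in the Md. Lef1 and Ptn, both lower in the MNP, were near equal in the other pair, at 110 and 274 CPM in the LNP, against 105 and 273 CPM in the Md. Other groups did not follow. The 3 Iroquois genes lower in the MNP were all 2-fold higher in the LNP. Of the 4 forkhead genes higher in the MNP, 1 was 2-fold higher in the LNP and 2 were lower. None of the 6 cartilage genes was 2-fold apart, with Col2a1 at 151 CPM in the LNP and 248 CPM in the Md.

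The genes of the 2 directions also differed in what they are. Protein-coding genes made up 87.6% of the genes higher in the MNP and 92.5% of those higher in the Mx, against 93.1% at 5 CPM. The MNP set held 31 entries that await experimental support in the annotation (TEC), and the Mx set held 0, where 175 were at 5 CPM. Of 74 noncoding genes with coordinates, 38 lay inside a protein-coding gene, 28 of them on its strand, and for 14 of these that gene differed in the same direction. The same shares over all noncoding genes at 5 CPM were not counted, so these numbers have nothing to be judged against. The median genomic span of coding genes was 60.1 kb for those higher in the MNP and 26.0 kb for those higher in the Mx, against 26.8 kb at 5 CPM. The median transcript length of coding genes in the MNP library was 3644 bases for those higher in the MNP and 2696 bases for those higher in the Mx, against 2710 bases at 5 CPM. Spans over 100 kb were found for 37.1% of the coding genes higher in the MNP, 20.2% of those higher in the Mx and 15.7% at 5 CPM. The MNP library, which had more of these long genes, was also the one with more Malat1 RNA, whose part in the spans was not tested.

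Neighbouring coding genes within 100 kb of each other formed 45 pairs among the differing genes, 32 with both higher in the MNP, 6 with both higher in the Mx and 7 opposed. Of all 675 differing genes, 541 were higher in the MNP, so that most pairs would fall there by that share alone. Such pairs were not counted over all genes at 5 CPM, and 3 of the 45 pairs overlap. Alx1 and Lrriq1 lie 15.8 kb apart on chromosome 10. En2 and Cnpy1, at 7.57 CPM in the MNP and 0.325 CPM in the Mx, are 28.7 kb apart on chromosome 5, and Zic1 overlaps Zic4, on the other strand of chromosome 9. Among genes higher in the Mx, Dlx1 and Dlx2, Gjb2 and Gjb6, Krt14 and Krt15, Cyp26a1 and Cyp26c1, and Col6a1 and Col6a2 were such pairs. Overlapping and antisense genes, 107 of the 675 where the other gene had 1 CPM or more, are uncertain because the strand setting of the counting is not stated. Noncoding genes with large differences, whose roles are little known, were found in both directions. Six3os1 was at 47.5 CPM in the MNP and 3.51 CPM in the Mx, and Gm53 and Gm33366 were at 7.94 and 11.1 CPM in the MNP, against 0.130 and 0.195 CPM in the Mx. Lower in the MNP were Foxl2os and Emx2os, at 2.19 and 2.88 CPM in the MNP, against 29.4 and 8.64 CPM in the Mx, and Crnde and AI606473, at 4.69 and 6.36 CPM in the MNP, against 13.3 and 53.8 CPM in the Mx.

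The boundary of 2-fold was not a gap. Just inside it on the MNP side lay Negr1 (7.26 against 3.38 CPM, MNP against Mx), Dnajc6 (11.4 against 5.46 CPM) and Gm37063 (12.3 against 5.91 CPM), and just outside it Pgm2l1 (175 against 87.4 CPM), Etv5 (83.99 against 41.9 CPM) and Gm15907 (7.49 against 3.51 CPM). On the Mx side Zmat4 (3.71 against 7.93 CPM), Bnc1 (6.20 against 12.999 CPM) and Pgm5 (18.5 against 38.2 CPM) lay just inside, and Sostdc1 (9.84 against 20.1 CPM), Tmem121 (2.80 against 6.04 CPM) and Sema5a (205 against 406 CPM) just outside. A further 19 of the 675 genes had a posterior mean count 10% or more away from the expected count in at least 1 library, against 0.846% of the 12172 genes. They include small nuclear RNA, histone and pseudogene entries with near-identical copies, and were kept in the counts but not described.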

How the data were processed

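RNA-seq libraries of the MNP, Mx, LNP and Md of wild-type e11.5 embryos were analysed, 1 per process. The authors made stranded total RNA libraries depleted of ribosomal RNA and processed the reads with STAR and RSEM 1.4.1 on mm10, as their processing notes state. They deposited RSEM's expected counts and posterior mean counts per gene, both unnormalized, and TPM, a share of transcripts corrected for length. The deposited RSEM lengths served to describe transcript length.

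The expected counts were rounded to integers for all 43346 gene entries. Left out were 26248 entries named by a number only, with 1 to 5 counts per library, and 96 spike-in entries with 0 counts. Symbols, biotypes and coordinates came from GENCODE M21 on GRCm38, the build called mm10, and gave no symbol to 884 entries, which held 0.307 to 0.342% of the counts. Total counts of 13216199 to 16163913 set the precision, and 3 counts correspond to 0.186 to 0.227 CPM. CPM used library totals, and log2 values of CPM and of TPM a pseudocount of 0.5. Fold intervals are 95% intervals from the exact (Clopper-Pearson) binomial interval of 1 gene's counts in both libraries, cover counting error only, and are given without the pseudocount. A library at 0 counts was set at 3 counts for a lower bound. The calling rule and intervals were tested on simulated data.

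Genes, 31 lists and families were chosen with earlier results of these data known. Named were the 15 coding and 4 noncoding genes with the largest log2 difference in each direction, left out where the posterior mean was 10% or more off, the 8 coding genes with the largest CPM difference, up to 6 differing members of each list by level or its 2 highest where none differed, 5 markers and the 3 genes on either side of each threshold. Other list members, family members and neighbours were named after their values were seen. Of the list genes, 3 had no match. Results for some genes are not reported here. Alternatives were normalization with edgeR 4.0.16 and DESeq2 1.42.0, other totals, posterior mean counts, TPM, other pseudocounts, minimum levels and folds. Python 3.11.15 and R 4.3.3 were used.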

Additional observations from a re-analysis of the deposited data

Results flagged for a closer look

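Entries that carry only a number, outside all comparisons, held 5 counts in the Mx library, above the 3 counts that a count of 0 allows, and 1 count in the MNP library.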

How the results depend on the processing

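The number of differing genes depended on the thresholds and on the use of TPM for both the level and the fold. Genes higher in the MNP numbered 541, and 256 with TPM throughout, 1009 with a minimum of 1 CPM, 1132 with none, 182 with 20 CPM, 227 at 3-fold and 343 where the whole counting interval lay past 2-fold. Genes higher in the Mx numbered 134, and 244, 283 and 68 with these minimums of 1, none and 20 CPM, and 70 at 3-fold. With edgeR or DESeq2 factors, other totals, posterior mean counts, TPM for the fold alone, pseudocounts of 0.1 and 2 or without uncertain genes, both counts stayed within 1.5 times. With TPM + 0.5 for the fold, 389 of the 541 and 116 of the 134 genes were still 2-fold apart. These numbers hold the effect of the 0.5 on small TPM as well as the correction for length. Atp8b4, at a TPM of 4.12 in the MNP and 0.04 in the Mx, had a log2 difference of 3.10, against 5.16 with CPM. The share of each in the change was not tested. Of 130 differing genes named by rule, 13 were under 2-fold with TPM + 0.5. They were Otx1, Ntn4, Hhip, Pou3f4, Stra6, Wnt9b and Krt15 beside the 6 just inside the threshold. Without the 0.5, the TPM of several were more than 2-fold apart, among them Otx1, Hhip, Pou3f4, Wnt9b and Krt15. None of these 130 genes turned round under the alternatives run, while 2 of the 675 genes, Dennd3 and Itgb6, changed sign with TPM. Named genes under 2-fold apart were not counted in this. The brain list median was 1.22 with a pseudocount of 2 and 1.59 with TPM + 0.5 for the fold, and the muscle median was -1.01 and -1.54. At a minimum of 1 CPM the share of the genes higher in the MNP stayed at 80.5%, and with 20 CPM it was 72.8%. Depth limited the ratios of genes with few counts in 1 library, which carry wide intervals. No paired analysis was possible because each process had 1 library.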
